A study of Mus musculus with 4 samples.

Results

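The mouse alpha-globin locus was taken as the stretch of chromosome 11 from 32100000 to 32220000 on the mm8 assembly, 120 kb taken to span the alpha-globin genes and the enhancers upstream of them. The window held 19 of the 16252 sites in the deposited lists of Ldb1, Tal1 and Gata1, that is 6 of 5170 in Ldb1, 7 of 5391 in Tal1 and 6 of 5691 in Gata1. The sites were chosen by their position in a window that was itself selected on the called sites and tag levels of these libraries, so those values describe the locus and were not tested. The libraries are chromatin immunoprecipitations (ChIP-seq) from total bone marrow of mice, with 1 library for each of 3 antibodies and 1 for control IgG. All 4 share the same tissue, and the labels say nothing of strain, genotype, age or number of animals. With 1 library per antibody there is no replicate, and every interval below is an exact 95% interval for counting error alone. Tags carry no molecular identifiers, so copies made by amplification were counted as if independent. Tags of Ldb1 and Tal1 were deposited in another alignment format than those of Gata1 and IgG. A fold of Ldb1 or Tal1 over IgG, or a ratio of Gata1 to Ldb1 or Tal1, thus also compares the 2 formats. Antibody tags were 25 bases long and IgG tags 36, so every fold over IgG also compares 2 tag lengths. The part of these differences in the folds and ratios was not tested.

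Haemoglobin of red cells is a tetramer of alpha-like and beta-like chains. The alpha-like chains come from a gene cluster in which Hba-x is expressed in the embryo and Hba-a1 and Hba-a2 in later life, and conserved enhancers far upstream of the genes, in and around the introns of Nprl3, drive them in erythroid cells. Nprl3 is a broadly expressed subunit of a complex that restrains growth signalling. Ldb1 is an adaptor that does not bind DNA by itself. Its partners in erythroid cells include Gata1, a zinc finger protein that recognises GATA motifs, and Tal1, which recognises E-boxes as a dimer of helix-loop-helix proteins. Total bone marrow holds many cell types besides erythroid ones, and a weaker signal there cannot be told apart from fewer bound cells.

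In RefSeq (GRCm38.p6) the genes follow each other on chromosome 11 in the order Mpg, Nprl3, Hba-x, Hba-a1, Hbq1b, Hba-a2 and Hbq1a, all on the plus strand but Nprl3. All 7 symbols looked for were found. RefSeq lists m(alpha)RE, a name of the alpha regulatory element, among the other names of Nprl3. Positions of GRCm38.p6 and mm8 cannot be set side by side, and a gene annotation of mm8 was not used here, so the gene or enhancer at each mm8 position below was not determined. The 250 bases before the start of Hba-x and of the adult pair are shown because they decide how tags can be read at these genes. Capitals mark the motifs, searched on both strands: GATAA as the GATA motif, the E-box written CANNTG, and the box CACCC that Krüppel-like factors bind. The 3 sequences are read along the plus strand, on GRCm38.p6.
Hba-x, chr11:32276350-32276599: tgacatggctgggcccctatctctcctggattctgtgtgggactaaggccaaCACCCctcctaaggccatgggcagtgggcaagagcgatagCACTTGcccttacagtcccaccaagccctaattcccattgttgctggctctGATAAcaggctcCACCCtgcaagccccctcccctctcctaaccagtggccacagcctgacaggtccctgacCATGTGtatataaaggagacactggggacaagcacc
Hba-a1, chr11:32283422-32283671: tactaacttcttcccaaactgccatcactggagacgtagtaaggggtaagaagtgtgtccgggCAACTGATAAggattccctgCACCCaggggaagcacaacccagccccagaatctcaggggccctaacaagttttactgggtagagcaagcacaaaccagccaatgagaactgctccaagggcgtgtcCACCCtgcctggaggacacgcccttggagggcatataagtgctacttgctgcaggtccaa
Hba-a2, chr11:32296242-32296491: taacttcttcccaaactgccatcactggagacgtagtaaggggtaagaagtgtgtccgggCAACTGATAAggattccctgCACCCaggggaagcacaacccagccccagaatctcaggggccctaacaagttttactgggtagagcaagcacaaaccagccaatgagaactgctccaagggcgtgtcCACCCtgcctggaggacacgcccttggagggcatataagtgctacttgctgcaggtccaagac

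Each of these promoters held 1 GATAA, which 22.6% of the 32851 promoters of the table hold in the same 250 bases, and 2 CACCC, held by 52.0%. CANNTG, held by 66.2%, occurred 2 times in Hba-x and 1 time in Hba-a1 and in Hba-a2. In Hba-a1 and Hba-a2 the E-box and the GATAA overlap, in CAACTGATAA. These are matches of letters and not measured binding. Moved by 3 bases, the entries of Hba-a1 and Hba-a2 (250 bases before and 50 after the start) were identical at 297 of 297 positions. Of the 276 words of 25 bases in the Hba-a1 entry, 273 (98.9%) also occurred in that of Hba-a2, and none in that of Hba-x. The tags of the antibody libraries were 25 bases long, so nearly every tag within these bases would match both genes. The promoters of Hbq1a and Hbq1b, genes of theta-like chains, shared 92 of 276 words (33.3%).

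Over the 120 kb, all 3 antibodies stood above IgG. The window held 1508 Ldb1, 1433 Tal1, 1142 Gata1 and 393 IgG tags. Per 1000000 tags of the library (RPM below) Ldb1 stood at 237 (interval 225 to 249), Tal1 at 248 (236 to 262), Gata1 at 145 (137 to 154) and IgG at 52.8 (47.7 to 58.3). None of the antibody intervals reached that of IgG. The fold over IgG was 4.48 (4.01 to 5.02) in Ldb1, 4.70 (4.20 to 5.27) in Tal1 and 2.75 (2.45 to 3.09) in Gata1. Counting each position and strand once, the window kept 851 Ldb1, 745 Tal1, 951 Gata1 and 291 IgG tags, and the folds were 3.67, 4.04 and 2.68.

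The window was among the densest of the genome for each antibody but not for IgG. Against 21889 tiles of 120 kb on the autosomes and the X chromosome, only 11 tiles had more Ldb1 tags, 10 more Tal1 tags and 14 more Gata1 tags. For IgG 4135 tiles (18.9%) had more. Its level over that of the median tile was 5.42 times for Ldb1, 5.78 times for Tal1, 3.24 times with Gata1 and 1.11 times with IgG. A count of 19 called sites was reached by 25 tiles (0.114%), and 5 places called for all 3 antibodies by 18 tiles (0.0822%), where 92.7% of tiles had no such place. The sites outside the window that lay nearest to its edges were 179 to 339 kb below and 239 to 3462 kb above, and had 8 to 20 tags by the caller. The outermost sites inside had 10 to 180 tags.

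**Figure D1:**
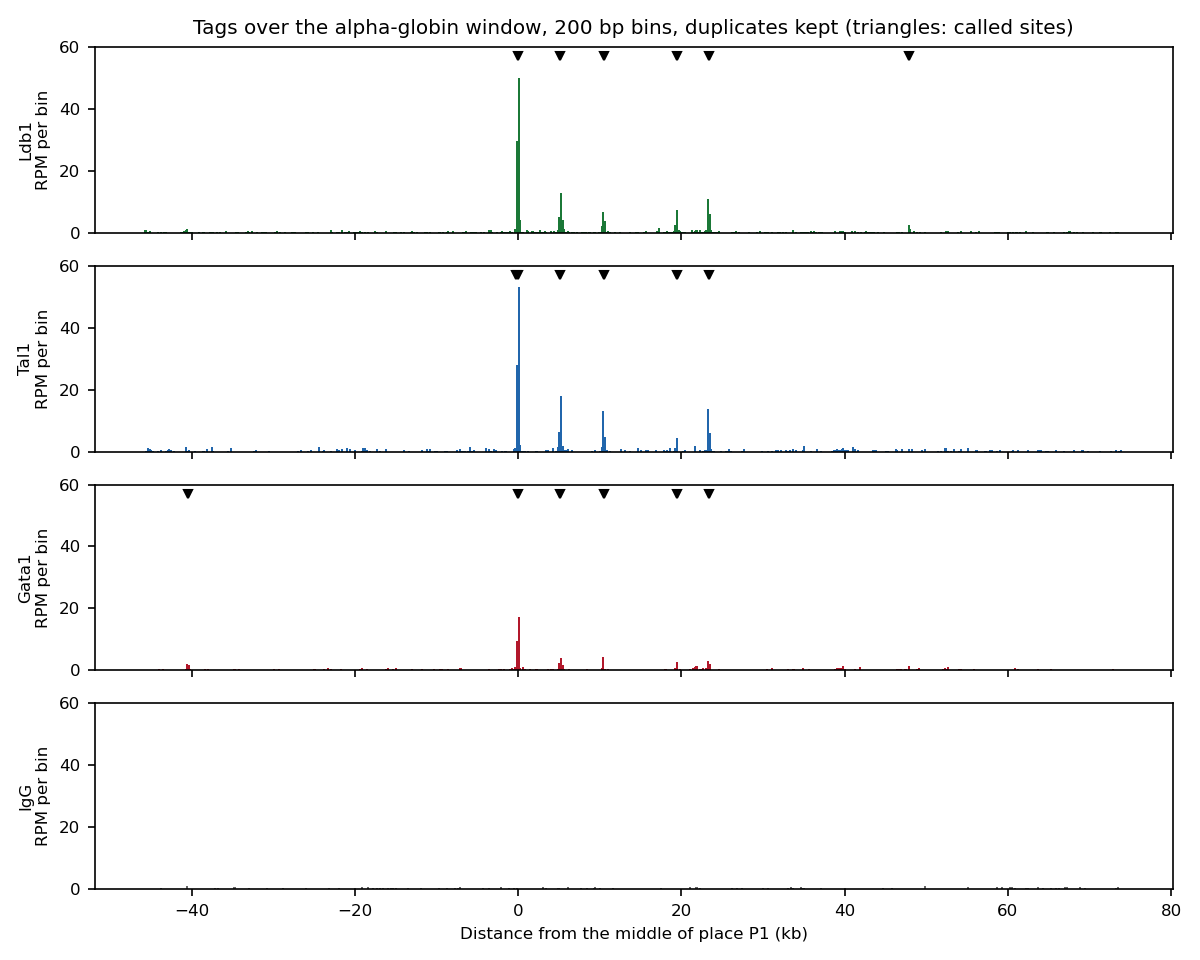
Tags per 200 bp bin in RPM (vertical axes, all 0 to 60, duplicates kept) against the distance in kb from the middle of place P1, for Ldb1, Tal1, Gata1 and IgG. Triangles mark the middle of each place with a called site of that antibody. The 3 antibody panels show the same 5 peaks within 23.3 kb, P1 the highest, and the IgG panel shows none. On this axis the Gata1 peaks at P2 to P5 are low, at most 4.19 RPM per bin.

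The 19 sites formed 8 places when centres within 200 bp were joined. At 5 places, named P1 to P5 here in order along the chromosome, all 3 antibodies were called. The other 3 were called for 1 antibody each. P1 lay at chr11:32145811-32145871, P2 at chr11:32150771-32151191, P3 at chr11:32156191-32156491, P4 at chr11:32165251-32165331 and P5 at chr11:32169131-32169211. From P1, the others were 5.14, 10.5, 19.45 and 23.3 kb away. P2 held 4 sites, since Tal1 was called there at 2 positions. Of the single-antibody sites, that of Tal1 lay beside P1, that of Gata1 lay 40.2 kb below the Tal1 site and that of Ldb1 lay 24.5 kb beyond P5.

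P1 was the strongest place of the locus for every antibody. By the caller's number of tags, its Ldb1 site had 180, the most in the Ldb1 list (rank 1 of 5170). Its Tal1 site had 149 tags (rank 9.5 of 5391, ties sharing the mean rank) and its Gata1 site 113 (rank 8 of 5691). The deposited fold of the caller was 226 in Ldb1, 235 in Tal1 and 92.7 in Gata1. Within 250 bp of the middle there were 535 Ldb1 tags (84.0 RPM, interval 77.0 to 91.4), 480 Tal1 tags (83.2 RPM, 75.9 to 91.0), 217 Gata1 tags (27.6 RPM, 24.02 to 31.5) and 2 IgG tags (0.269 RPM, 0.0326 to 0.971). Every antibody was thus far above IgG, and Ldb1 and Tal1 were at nearly the same level. With 2 IgG tags the folds are loose: 312 (86.1 to 2586) in Ldb1, 309 (85.2 to 2563) in Tal1 and 102 (28.0 to 852) in Gata1. Of the 2275 places of all 3 antibodies outside the window, 1 had more Ldb1 tags than P1, 8 more Tal1 tags and 3 more Gata1 tags.

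P1 also shaped the totals of the window. It held 35.5% of the window's Ldb1 tags, 33.5% of Tal1 and 19.0% of Gata1 on 0.417% of its length, against 0.509% of the IgG tags. Many of its tags repeated a position and strand. After each was counted once, 211 of 535 Ldb1 tags (39.4%), 196 of 480 Tal1 tags (40.8%) and 140 of 217 Gata1 tags (64.5%) were kept. In the whole libraries these shares were 71.97%, 63.2% and 88.97%. Over the 2280 places of all 3 antibodies, those of the window included, they were 58.3%, 52.8% and 82.2%. By distinct tags P1 stood at 46.0 RPM in Ldb1, 53.8 in Tal1, 19.99 in Gata1 and 0.174 for IgG, so that Tal1 had the highest value in place of Ldb1. The interval of Tal1 over Ldb1 included 1 with all tags (0.874 to 1.12) and with distinct tags (0.957 to 1.43). Neither order was thus separated from counting error. Whether repeated tags came from amplification or from many fragments ending at the same base was not tested.

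P5 and P2 followed, with close levels. P5 had 110 Ldb1 tags (17.3 RPM, 14.2 to 20.8), 117 Tal1 tags (20.3 RPM, 16.8 to 24.3), 43 Gata1 tags (5.46 RPM, 3.95 to 7.36) and 2 IgG tags. Its caller's numbers were 53, 52 and 28, at ranks 428, 460.5 and 1048 of the 3 lists. P2 had 125 Ldb1 tags (19.6 RPM, 16.3 to 23.4), 149 Tal1 tags (25.8 RPM, 21.85 to 30.3), 52 Gata1 tags (6.60 RPM, 4.93 to 8.66) and 6 IgG tags (0.807 RPM, 0.296 to 1.76). The IgG count at P2 was the highest of the 5 places, and 5.19% of the places of all 3 outside the window had a higher one. The IgG-relative values at P2 were 24.3 (10.9 to 67.6) in Ldb1, 32.0 (14.4 to 88.7) in Tal1 and 8.19 (3.52 to 23.3) in Gata1. At P5 the 3 values were 64.2 (17.4 to 537), 75.4 (20.4 to 630) and 20.3 (5.29 to 173).

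The sites at P2 were broad and partly split. Ldb1 was called over 420 bp (50 tags, rank 485) and Gata1 over 260 bp (28 tags, rank 1048). Tal1 was called as a narrow site of 40 bp with 52 tags (rank 460.5) and a second one with 9 tags (rank 4168.5), their centres 210 bp apart.

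P3 had 78 Ldb1 tags (12.2 RPM, 9.68 to 15.3), 108 Tal1 tags (18.7 RPM, 15.4 to 22.6), 41 Gata1 tags (5.21 RPM, 3.74 to 7.06) and 1 IgG tag. Over IgG this was 91.1-fold in Ldb1 (15.9 to 3643), 139-fold in Tal1 (24.5 to 5551) and 38.7-fold in Gata1 (6.57 to 1567). The caller gave it 33 Ldb1 tags (rank 945.5), 48 Tal1 tags (rank 541) and 30 Gata1 tags (rank 920.5). Tal1 was thus placed higher in its list than Ldb1 or Gata1 in theirs.

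P4 was the weakest of the 5, and it is described in full although it fell outside the naming rule, a choice made after its values were seen. It had 64 Ldb1 tags (10.05 RPM, 7.74 to 12.8), 32 Tal1 tags (5.55 RPM, 3.79 to 7.83), 27 Gata1 tags (3.43 RPM, 2.26 to 4.99) and 1 IgG tag. The caller gave 31 Ldb1 tags (rank 1031), 19 Tal1 tags (rank 1727.5) and 20 Gata1 tags (rank 1906.5). Over IgG this was 74.7-fold in Ldb1 (12.9 to 2998), 41.3-fold in Tal1 (6.89 to 1680) and 25.5-fold in Gata1 (4.20 to 1044). Of the 5 places, P4 alone had more Ldb1 than Tal1 with the interval of their ratio off 1. Of the places of all 3 outside the window, 76.0% had more Tal1 tags than P4, against 39.6% with more Ldb1 tags and 69.8% with more Gata1 tags.

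**Figure D2:**
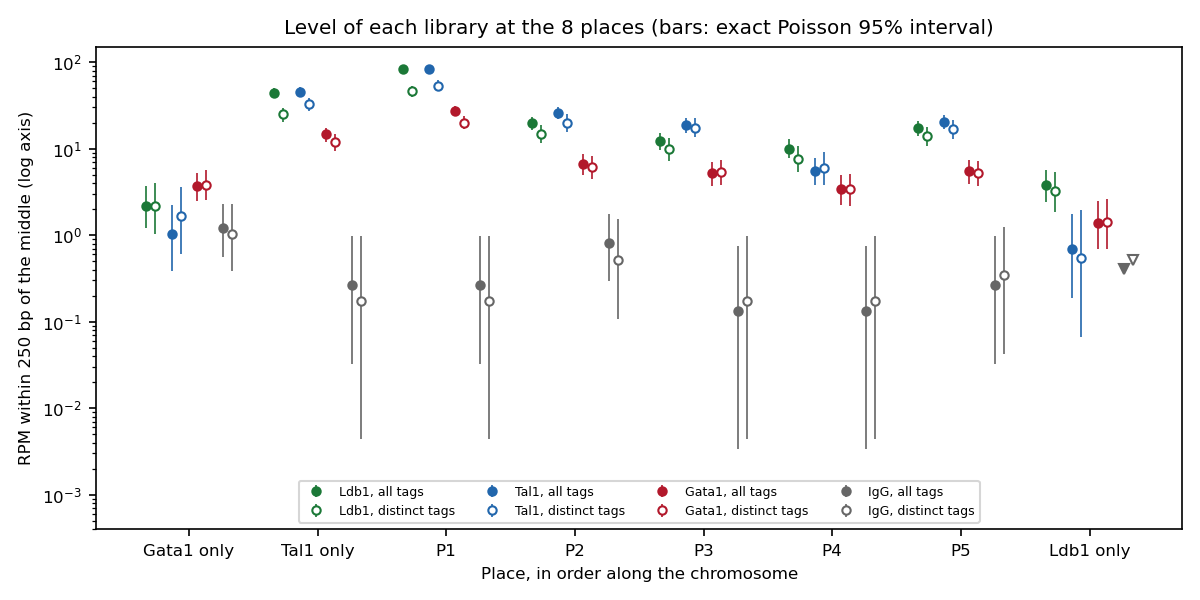
RPM within 250 bp of the middle of each of the 8 places (log axis) for the 4 libraries, filled for all tags and open for distinct tags, with exact Poisson 95% intervals; triangles stand at 3 tags where none was counted. P1 leads for each antibody, with 84.0 Ldb1, 83.2 Tal1 and 27.6 Gata1 RPM, and IgG stays at or below 1.21 RPM at all 8 places.

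All 5 places were at least 5-fold over IgG for each antibody, IgG being taken as its count or 3 tags, whichever was larger. Of the 2275 places of all 3 outside the window, 97.2% passed in Ldb1, 97.9% in Tal1 and 92.7% in Gata1. The share passing for all 3 was 91.1%, so the count of 5 of 5 does not set the locus apart. Summed over the 5 places there were 912 Ldb1, 886 Tal1, 380 Gata1 and 12 IgG tags. The folds over IgG were 88.8 (50.6 to 172) in Ldb1, 95.2 (54.2 to 185) in Tal1 and 29.9 (16.9 to 58.4) in Gata1. The 5 places covered 2.08% of the window and held 60.5% of its Ldb1, 61.8% of its Tal1 and 33.3% of its Gata1 tags, against 3.05% of IgG.

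The order of the 5 places was P1, P2, P5, P3, P4 for each antibody when duplicates were kept. P1 exceeded P2 in all 3, by 4.28 times (3.52 to 5.24) in Ldb1, 3.22 times (2.67 to 3.90) in Tal1 and 4.17 times (3.07 to 5.76) in Gata1. P2 and P5 were not separated beyond counting error for any antibody (ratios 1.14, 1.27 and 1.21, all intervals including 1). P5 exceeded P3 for Ldb1 by 1.41 times (1.05 to 1.91) but not for Tal1 (1.08, 0.827 to 1.42) or Gata1 (1.05, 0.668 to 1.65). P3 exceeded P4 for Tal1 by 3.38 times (2.26 to 5.18), and the interval included 1 for Ldb1 (1.22, 0.864 to 1.72) and Gata1 (1.52, 0.912 to 2.57). By distinct tags P3 and P5 changed places for Tal1 and Gata1, and the step from P5 to P3 for Ldb1 was 1.42 (0.956 to 2.13). The step from P1 to P2 and that from the fourth place to P4 for Tal1 (2.77, 1.68 to 4.74) remained off 1.

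The antibodies were then compared place by place, as ratios of RPM in 3 pairs of libraries at each place. The ratio also depends on how well each antibody pulls down, and in the pairs with Gata1 it also compares the 2 alignment formats. Each value is therefore set beside the 2275 places of all 3 elsewhere. There the median ratio of Tal1 to Ldb1 was 1.26 (quartiles 0.897 and 1.68), that of Gata1 to Ldb1 0.547 (0.418 and 0.735) and that of Gata1 to Tal1 0.4502 (0.316 and 0.663).

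Tal1 over Ldb1 differed along the locus. It was 0.991 (0.874 to 1.12) at P1, 1.32 (1.03 to 1.68) at P2, 1.53 (1.13 to 2.07) at P3, 0.552 (0.349 to 0.857) at P4 and 1.17 (0.898 to 1.54) at P5. Tal1 was higher with the interval off 1 at P2 and P3, and at 37.5% of the places elsewhere. It was lower at P4, and at 9.01% of the places elsewhere. The interval of P4 did not overlap those of the other 4 places. Of the places elsewhere, 5.10% had a lower ratio than P4 and 67.7% a lower one than P3. By distinct tags P4 rose to 0.790 (0.442 to 1.39), with 13.1% of places below it, and its interval then included 1 and overlapped those of the others; P1 was then 1.17 (0.957 to 1.43), P2 1.35 (0.957 to 1.91) and P3 1.79 (1.20 to 2.68), so only P3 remained off 1.

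Gata1 over Ldb1 had overlapping intervals at the 5 places. It was 0.328 (0.279 to 0.385) at P1, 0.337 (0.239 to 0.469) at P2, 0.425 (0.284 to 0.628) at P3, 0.341 (0.209 to 0.543) at P4 and 0.316 (0.217 to 0.454) at P5. Gata1 was lower with the interval off 1 at 5 of 5 places, and at 62.1% of the places elsewhere, where 1.41% had it higher. All 5 lay under the median of the places elsewhere, of which 8.44% to 26.7% had a lower ratio. By distinct tags the range was 0.378 to 0.552, with 8.66% to 41.1% of places below. Within 100 bp it ran from 0.240 (0.145 to 0.382) at P5 to 0.429 (0.256 to 0.704) at P3.

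Gata1 over Tal1 was 0.331 (0.281 to 0.390) at P1, 0.256 (0.183 to 0.353) at P2, 0.278 (0.189 to 0.402) at P3 and 0.269 (0.185 to 0.385) at P5. P4 stood above these at 0.618 (0.356 to 1.07), with 70.5% of the places elsewhere below it, against 13.1% to 28.2% for the other 4. Gata1 was lower with the interval off 1 at 4 of 5 places, and at 70% of those elsewhere. It was higher at none of the 5, and at 1.1% of those elsewhere. The pairs share libraries, so the P4 values of the 2 pairs with Tal1 are not separate observations.

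**Figure D3:**
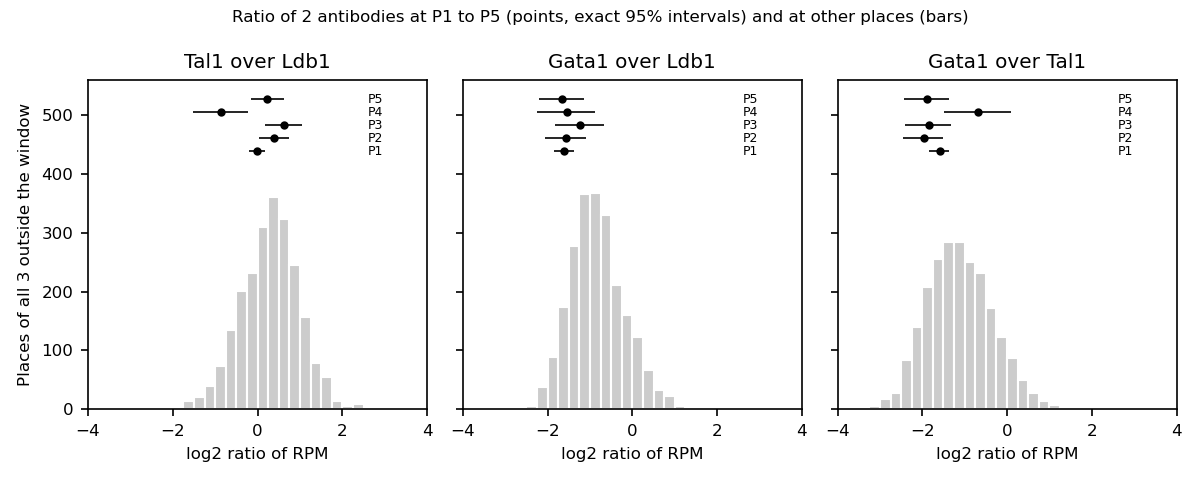
Log2 ratio of RPM for 3 pairs of antibodies (horizontal axes): grey bars count the 2275 places of all 3 outside the window (vertical axis), and points with exact 95% intervals mark P1 to P5 at arbitrary heights. P4 lies left of the other 4 for Tal1 over Ldb1 (ratio 0.552) and right of them for Gata1 over Tal1 (0.618), and the 5 points lie between 0.316 and 0.425 for Gata1 over Ldb1.

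The strands were set apart at each place. In ChIP-seq, tags are read from the ends of fragments, so plus-strand tags lie to the left of a bound point and minus-strand tags to the right. At all 5 places and for all 3 antibodies the median of the minus-strand tags lay to the right, by 46.5 to 130.5 bp when distinct tags within 250 bp were used. The caller places sites where tags change from plus to minus strand, so this order was set by the calls and is not separate evidence. At P1 the strands were 130.5 bp apart in Ldb1, 95 bp in Tal1 and 105 bp in Gata1. These distances are below the fragment lengths the caller estimated (225, 188 and 235 bp), and the reason was not tested. IgG had 1 to 6 tags at each place, too few for a shape.

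The middle between the strands differed between antibodies by 4 to 31 bp with distinct tags and by 9 to 39 bp with all tags. At P1 the largest difference was 6.3 bp with distinct tags and 9 bp with all, and at P4 it was 4 and 17.6 bp. At P2 it was 31 and 15 bp, at P3 27.7 and 39 bp and at P5 24 and 30.7 bp. At P2 this middle, from distinct tags, lay right of the place's own middle, by 72.2 bp in Ldb1, 69.2 bp in Tal1 and 41.2 bp in Gata1, on the side of the stronger Tal1 site. Whether the proteins occupied these bases in the same cell cannot be read from separate libraries of a mixed tissue.

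**Figure D4:**
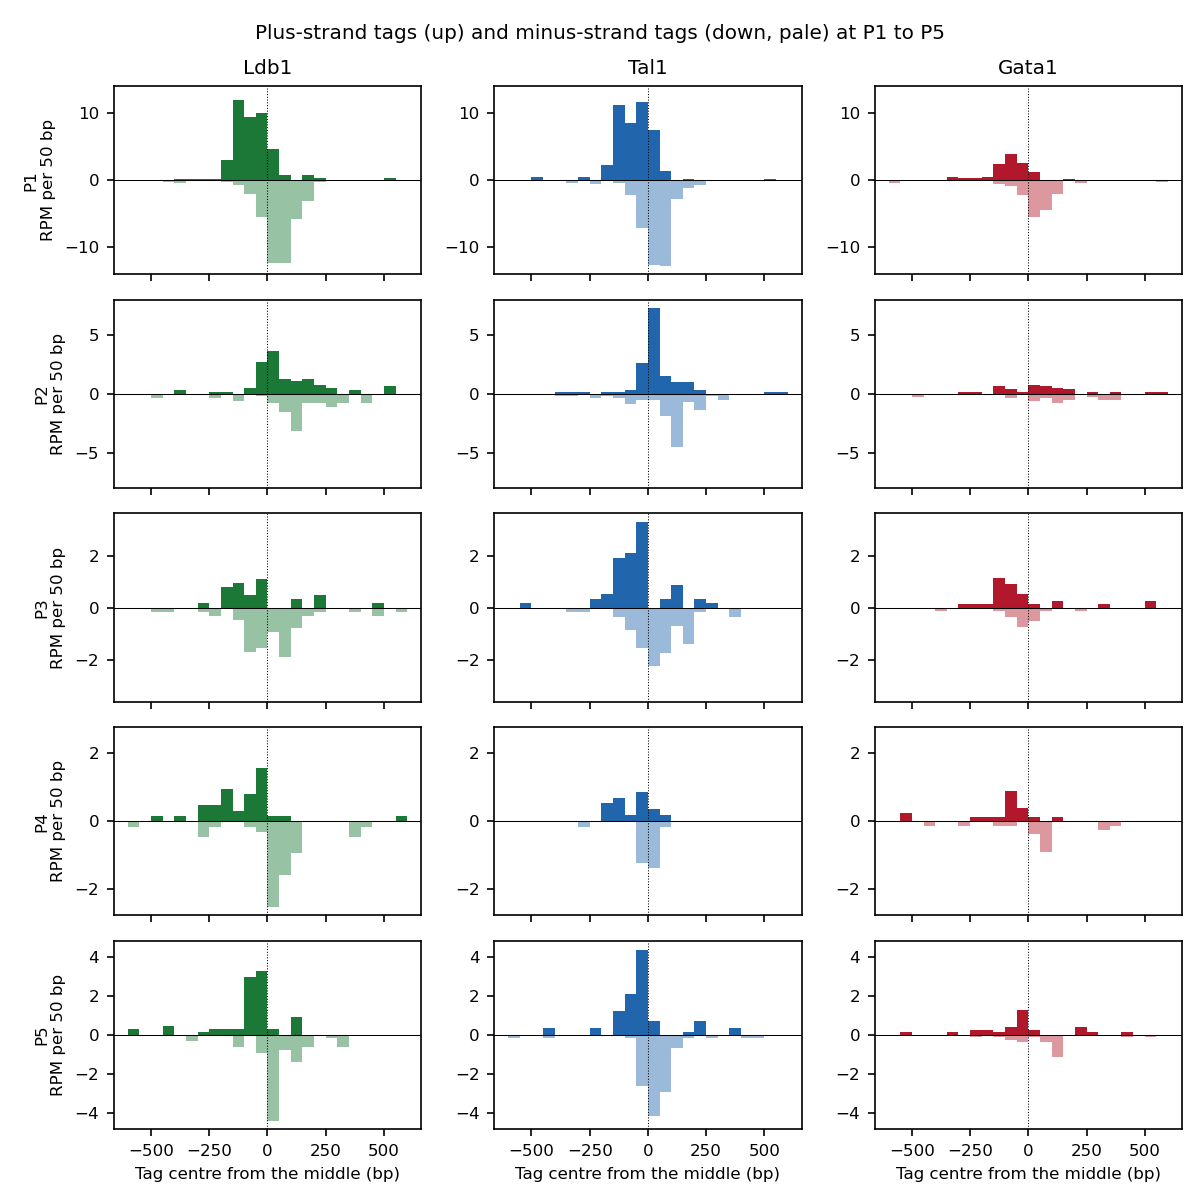
Tags per 50 bp in RPM by strand (plus upward, minus downward and pale) against the distance in bp from the middle of P1 to P5 (rows) for the 3 antibodies (columns); all tags, with 1 vertical scale per row. Plus-strand tags lie left of minus-strand tags in each panel, and both are shifted to the right at P2.

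The other 3 places were weak or sat beside a strong one. The Tal1 site at chr11:32145571-32145611 had 10 tags by the caller (rank 3614.5) and its middle was 250 bp from that of P1. Within 250 bp of it there were 284 Ldb1, 263 Tal1 and 115 Gata1 tags, largely shared with the window of P1. Within 100 bp, where the windows do not overlap, it had 24 Ldb1 tags (3.77 RPM), 21 Tal1 tags (3.64 RPM), 15 Gata1 tags (1.91 RPM) and 2 IgG tags (0.269 RPM). P1 had 365, 369, 164 and 0 tags in the same width. Ldb1 and Tal1 thus stood at similar levels on the flank of P1, though only Tal1 was called there. Gata1 stood at 0.506 of Ldb1 (0.247 to 1.004) and 0.523 of Tal1 (0.251 to 1.065). Both intervals included 1, so Gata1 was not separated from either.

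The Gata1 site at chr11:32105291-32105471, the farthest from P1 (40.5 kb), had 21 tags by the caller (rank 1738) and a deposited fold of 17.2. It had 29 Gata1 tags (3.68 RPM, 2.47 to 5.29), 14 Ldb1 tags (2.20 RPM, 1.20 to 3.69), 6 Tal1 tags (1.04 RPM, 0.382 to 2.26) and 9 IgG tags (1.21 RPM, 0.553 to 2.30). Gata1 was 3.04 times IgG (1.403 to 7.31), Ldb1 1.82 times (0.732 to 4.76) and Tal1 0.860 times (0.252 to 2.71). IgG was higher here than at any other of the 8 places. The interval excluded 1 for Gata1 but not for Ldb1 or Tal1. Within 500 bp Ldb1 was 2.595 times IgG (1.13 to 6.47), and with IgG averaged over the whole window Ldb1 was 9.98 times (5.41 to 16.95) and Tal1 4.72 times (1.72 to 10.4), so these calls turn with the IgG level used.

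The Ldb1 site at chr11:32193691-32193731 had 14 tags by the caller (rank 2730). It had 24 Ldb1 tags (3.77 RPM, 2.41 to 5.61), 11 Gata1 tags (1.397 RPM, 0.697 to 2.50), 4 Tal1 tags (0.694 RPM, 0.189 to 1.78) and 0 IgG tags, for which 3 tags (0.403 RPM) were taken as the limit a count of 0 allows. Against that limit of 3 tags in the library, Ldb1 was at least 9.34-fold higher than IgG and Gata1 at least 3.46-fold higher, without the antibody's own counting error. With the counting error of both libraries the exact lower limits were 7.03 for Ldb1, 2.37 for Gata1 and 0.851 for Tal1, so Tal1 was not separated from IgG. Tal1 over Ldb1 was 0.184 (0.0464 to 0.536), a value that the call for Ldb1 alone had selected. The plus-strand and minus-strand medians of Ldb1 lay 75.5 bp apart with all tags and 141 bp apart with the 15 distinct ones.

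Between the places the antibodies remained above IgG by a smaller margin. Outside 1 kb of any called centre the window kept 433 Ldb1, 457 Tal1, 601 Gata1 and 342 IgG tags on 105340 bp. Ldb1 stood 1.48 times over IgG there (1.28 to 1.71), Tal1 1.72 times (1.49 to 1.99) and Gata1 1.66 times (1.45 to 1.90). In 20819 tiles of 120 kb with at least 100 IgG tags, treated the same way, the median fold was 0.926, 0.904 and 0.947. Of these tiles, 1.01% had a higher fold than the window in Ldb1, 0.418% in Tal1 and 0.192% in Gata1. Ldb1 had the lowest fold between the places, though the 3 intervals overlapped, whereas Gata1 had the lowest at P1 to P5.

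The rise between the places was uneven. The window was cut into 24 stretches of 5 kb, a division chosen after the first results were seen, and 18 of them held no called site. The interval lay above 1 in 5 of these 18 in Ldb1, 6 in Tal1 and 5 in Gata1, where outside the window 5.01%, 6.50% and 4.47% of stretches without a site and with at least 5 IgG tags did so. It lay below 1 in none of the 18 for any antibody. The stretch chr11:32185001-32190000, which held no site, had 38 Ldb1, 44 Tal1, 54 Gata1 and 11 IgG tags. This was 4.03 times IgG (2.02 to 8.75) in Ldb1, 5.16 times (2.62 to 11.1) in Tal1 and 4.64 times (2.40 to 9.84) in Gata1. Ldb1 tags fell in 16, Tal1 tags in 13 and Gata1 tags in 18 of its 25 bins of 200 bp, with at most 4, 9 and 10 in 1 bin. Its first 1000 bp held 14 of the 38 Ldb1 tags (36.8%), 18 of 44 Tal1 tags (40.9%), 29 of 54 Gata1 tags (53.7%) and 4 of 11 IgG tags (36.4%), a division chosen after the values were seen. These counts keep duplicates, which enter the shares. The Tal1 bin with 9 tags stood at 1.56 RPM with all tags and 0.549 RPM with distinct tags. The Gata1 bin with 10 tags stood at 1.27 and 1.285 RPM.

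A second stretch without a site, chr11:32160001-32165000 between P3 and P4, had 33 Ldb1, 29 Tal1, 16 Gata1 and 7 IgG tags. This was 5.51 times IgG (2.39 to 14.75) in Ldb1, 5.34 times (2.29 to 14.4) in Tal1 and 2.16 times (0.840 to 6.21) in Gata1. The first 5 kb of the window gave 3.94 (1.74 to 10.04), 4.84 (2.17 to 12.2) and 2.48 (1.05 to 6.47). From chr11:32205001 to the end of the window the 3 stretches stood at 0.501 to 0.730 times IgG in Ldb1, 0.591 to 0.946 in Tal1 and 0.551 to 1.64 in Gata1, all with intervals including 1.

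**Figure D5:**
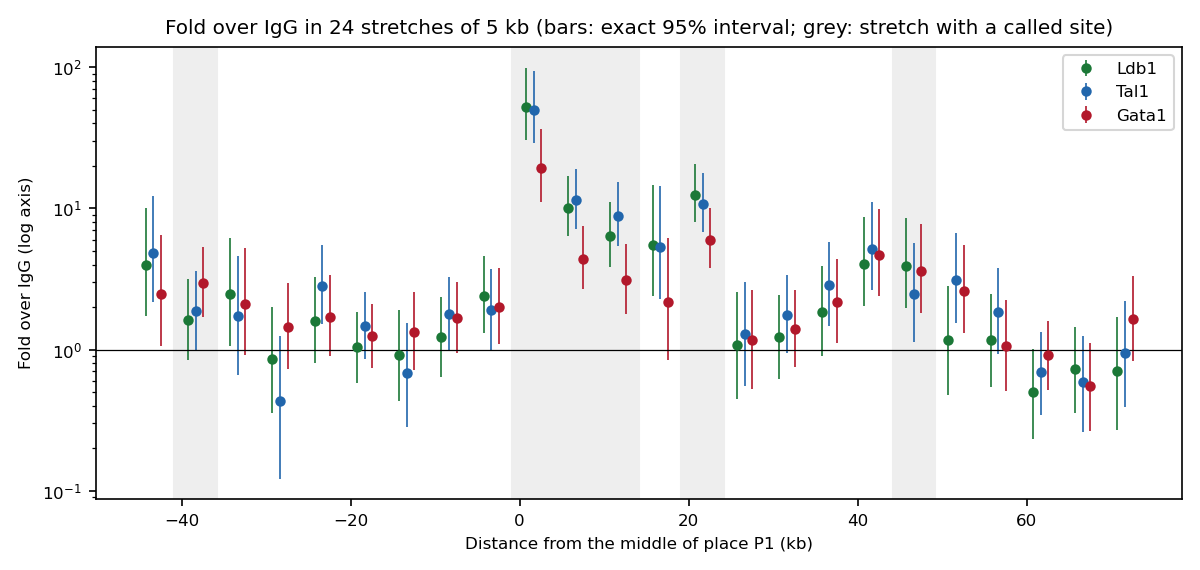
Fold over IgG (log axis) in 24 stretches of 5 kb against the distance in kb from the middle of P1, with exact 95% intervals for Ldb1, Tal1 and Gata1; grey marks stretches with a called site and the line marks 1. The fold peaks at 52.6 for Ldb1 in the stretch of P1, and the stretch from 39.2 to 44.2 kb, without a site, stands at 4.03 to 5.16.

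The window was also read in bins of 200 bp. A bin was counted when the antibody stood at least 5-fold over IgG, with IgG taken as its count or 3 tags. Of the 600 bins, 14 passed in Ldb1 (0.0481% of 13139086 bins outside the window did), 10 in Tal1 (0.0666%) and 8 in Gata1 (0.0277%). The same 8 bins passed for all 3 antibodies, against 0.0169% elsewhere. All 10 Tal1 and all 8 Gata1 bins, and 13 of the 14 Ldb1 bins, had their middle within 500 bp of the middle of P1 to P5, and the remaining Ldb1 bin was that of the Ldb1 site. For Ldb1 there were 3 such bins at each of P1, P2 and P3 and 2 at each of P4 and P5. Tal1 had 3 at P1 and 1 at P4, and Gata1 had 1 each at P3 and P4 and 2 at each of the others. Sites were called from the same tags, so these bins and the sites are not separate evidence. The floor of 3 IgG tags keeps weaker bins from passing, so the count does not measure the width of the peaks. At 3-fold, 26 Tal1 bins passed (0.422% of the bins outside the window did), and some lay away from P1 to P5. An example is that at -37.5 kb from P1, with 1.39 RPM from all tags and 0.823 RPM from distinct tags.

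Some stretches of the window held no tag at all. Of its 600 bins, 77 (12.8%) held no tag of any library, against 31.2% of the bins of the autosomes and the X chromosome. The latter share counts every bin up to the last tag of each chromosome, unsequenced stretches included, so it is not a like background. Of the 77 empty bins of the window, 36 were isolated and 41 lay in 16 runs of neighbouring bins, 2 of them 4 or more bins long. The longer spanned chr11:32195801-32197000 (1200 bp) and the other chr11:32183401-32184200 (800 bp), with their starts 12.4 kb apart. No tag of any of the 4 libraries, IgG included, had its centre between 32195752 and 32197170, or between 32183312 and 32184332. The stretch with the raised folds described above lay between these runs. Next to the longer run, 1 kb on the left held 3 Ldb1, 6 Tal1, 9 Gata1 and 11 IgG tags, and 1 kb on the right 1, 2, 7 and 0. Next to the other, 1 kb on the right held 3 Ldb1, 12 Tal1, 16 Gata1 and 2 IgG tags, and 1 kb on the left 3, 6, 2 and 3.

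How tags that match more than 1 place were treated is not stated in the labels or headers, and mm8 sequence was not used. Whether the empty runs are the paired genes Hba-a1 and Hba-a2, whose promoters share 98.9% of their words of 25 bases, was not tested. Where no tag can be placed, the libraries give no level for Ldb1, Tal1 or Gata1, and an absence of called sites there is not a measurement of absent binding.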

How the data were processed

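Per the labels' protocols, fresh bone marrow cells were fixed with formaldehyde, sonicated, precipitated with each antibody and sequenced on an Illumina Genome Analyzer. Aligned tags were deposited by the authors, and the submitters' processing notes name the build mm8. The aligner is not given in the sources used here. Depth was 6368803 tags (Ldb1), 5767555 (Tal1), 7873298 (Gata1) and 7437674 (IgG). Antibody tags were 25 bases long and IgG tags 36. Every deposited Ldb1 and Tal1 tag has the code U0, U1 or U2 (U0 for 56.6% and 80.6%), while Gata1 and IgG tags have a match string and a score of at least 4. The effect of these differences was not tested. Sites were called with SISSRs 1.4 per library against IgG, keeping 1 tag per position, per the file headers. The deposited lists give a count of tags, a fold (ratio over background) and a p-value per site, all the authors' own; counts ranked sites within a list, folds were only quoted and p-values were not used. The caller required 9 tags for Ldb1, 8 for Tal1 and 11 for Gata1.

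Tags were counted by their centre, using scipy 1.17.1, pandas 2.3.3, numpy 2.4.6 and Python 3.11.15, and scaled per 1000000 tags of the library. Levels carry exact Poisson intervals and ratios exact conditional ones; no test between conditions was possible with 1 library each. Full descriptions were planned for the 4 places with the best mean rank. Counting code was checked on simulated data. Members, lists and rules were chosen with earlier results of these data known. Promoter sequences come from RefSeq (GRCm38.p6). Alternatives covered duplicates, widths, scaling, the joining distance, bins and tiles.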

Additional observations from a re-analysis of the deposited data

How the results depend on the processing

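Of 255 alternative values for 68 results, 226 lay inside the interval of the main value or, for counts, at most 1.5 times away. The other 29 moved. Some ratios crossed 1. With IgG averaged over the whole window, Tal1 over IgG at the Gata1 site moved from 0.860 (0.252 to 2.71) to 4.72 (1.72 to 10.4). With 1 tag per position, Tal1 over Ldb1 at P1 moved from 0.991 to 1.17, with 1 in both intervals. Folds at single places entered this tally against at least 3 IgG tags, so 208 for Ldb1 at P1 (70.9 to 1013) stands there for the 312 given above. Single places gave 192 of the 255 alternatives, and few IgG tags make the intervals of their folds wide. For Ldb1 at P1, both 88.2 and 382 lay inside the interval. The alternatives also count many of the same tags again, so the tally does not measure how stable the results are. With 1 tag per position the window's fold over IgG was 3.67 for Ldb1 and 4.04 for Tal1, and from the outermost sites with 1 kb added it was 5.73, 5.84 and 3.24 (Gata1). Centres within 50 bp gave 3 places of all 3. Over the 5 places, Tal1 over Ldb1 moved from 1.07 (0.977 to 1.18) to 1.24 with 1 tag per position and to 1.18 within 100 bp, both with intervals above 1, and Gata1 over Ldb1 moved from 0.337 to 0.436 with 1 tag per position. Ldb1 passed in 8 of 240 bins of 500 bp (0.152% of such bins outside the window did) and Tal1 in 16 of 1200 bins of 100 bp (0.027%). Of 600 bins of 200 bp, Tal1 passed in 26 at 3-fold (0.422%) and Gata1 in 5 with 1 tag per position (0.0141%). With IgG averaged over the whole window, the folds at the Gata1 site rose to 9.98 (Ldb1), 4.72 (Tal1) and 16.7 (Gata1) from 1.82, 0.860 and 3.04, and those at P2 to 89.2, 117 and 30 from 24.3, 32.0 and 8.19.

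No paired analysis was possible because there is 1 library per antibody, and leaving out a replicate was not run for that reason. IgG depth limits the folds of single places, as the 2 IgG tags at P1 show: the Ldb1 value of 312 spans 86.1 to 2586.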
